A study of Homo sapiens with 39 samples.

Results

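A pair of cell lines whose HNF4α transgenes differ, by their numbering, only at the N-terminus was compared here: the HNF4α12-GFP line and the HNF4α9-GFP line, called line 12 and line 9. They were picked by their labels, which gave 3 libraries of each, or 6 of the 39 libraries of the series. All cells were HCT116 Flp-In T-REx, a human colorectal carcinoma line with 1 recombination site and a tetracycline-controlled promoter, and each isoform line held 1 HNF4A-GFP transgene at that site. Every culture, the parental controls without a transgene included, received 2.5 ug/ml doxycycline for 48 h, and polyadenylated RNA was sequenced. The isoform lines had been kept in blasticidin with hygromycin B and the parental cells in blasticidin with zeocin, and these antibiotics were removed at induction. Each isoform is represented by 1 stable line and no line carried GFP alone, so the isoform and the line cannot be told apart. The labels do not say whether the 3 libraries of a line came from separate cultures, and p-values measure only the spread between these libraries.

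HNF4A encodes a nuclear receptor that binds DNA as a homodimer and is required for the gene programmes of liver, intestine and pancreas. Its gene has a proximal promoter, P1, and a distal one, P2, and P2 transcripts lack the N-terminal activation domain of the P1 forms. By the standard numbering, isoforms 7 to 9 begin with the P2 exon 1D and isoforms 10 to 12 are P2 forms that begin with the coding part of exon 1E. Isoforms 9 and 12 share the short C-terminus, isoforms 7 and 10 have the full one, and isoforms 8 and 11 have the full one with a small insertion. These classes come from the nomenclature and not from the labels.

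The coding starts that separate the 2 kinds of P2 form are shown because they are the difference under study. They were read from GENCODE transcript models on GRCh38, on the plus strand of chromosome 20. Capitals mark the bases found in that start only, and lower case the first 30 bases of the next exon, from position 44406058, which both models share. The first coding exon of HNF4A-208, at chr20:44355805-44355853, is the exon 1D start, and that of HNF4A-209, at chr20:44390640-44390679, is the exon 1E start.
HNF4A-208: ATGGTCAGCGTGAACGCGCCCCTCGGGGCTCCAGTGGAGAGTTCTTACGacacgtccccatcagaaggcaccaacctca
HNF4A-209: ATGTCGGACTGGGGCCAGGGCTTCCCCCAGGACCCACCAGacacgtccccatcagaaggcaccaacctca
The exon 1D start contributes 49 coding bases and the exon 1E start 40. The sequences of the transgenes themselves were not used here.

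HNF4A, summed over its 12 isoform rows, was at 640, 670 and 724 TPM (a level scaled for transcript length and for the total of the library) in the libraries of line 12 and at 808, 974 and 1060 TPM in those of line 9. The parental cells had 31.9, 30.8 and 31.7 TPM. Both lines therefore stood far above the parental cells, and every library of line 9 was above every library of line 12. The means were 677.7 ± 42.4 and 948.4 ± 130 TPM (SD, n = 3), 1.4 times higher in line 9. The exact two-sided permutation test gave p = 0.1, the smallest value that 3 against 3 libraries allow. The part of this unequal transgene level in the differences below was not tested.

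Across genes, libraries of the same line correlated at r from 0.994 to 0.996 and libraries of different lines at 0.993 to 0.995, and these ranges overlapped for line 9. The 13 mitochondrially encoded messages took 54131.9 to 85688.7 TPM of the line 12 libraries and 30471.7 to 100117 TPM of the line 9 libraries. None of them differed between the lines (lowest adjusted p = 0.3). Of the cell type markers, all 8 genes of intestinal epithelium were expressed, led by KRT8 at means of 1040 and 1260 TPM. The sums over 8 fibroblast, 8 leukocyte, 6 endothelial and 8 hepatocyte markers stayed at or below 12.8 TPM in every library of both lines, with LUM, MS4A1, FGA and TTR at 0.

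Differences between the lines were taken on the log2(TPM + 1) scale, which understates the change of genes at low level, over 15002 genes whose level averaged 1 TPM or more. A gene was called when its adjusted p was under 0.05 and its mean differed by at least 1 on that scale. Line 12 exceeded line 9 in 67 called genes (0.447%) and lay below it in 14 (0.0933%), together 81 genes or 0.54% of those tested. PNPLA1, at 1.00, lay just inside this threshold, and CPE and MSX1, at 0.998 and 0.995, lay just outside it. At adjusted p under 0.05 with no minimum, 1370 genes (9.13%) were higher and 1131 (7.54%) lower in line 12. The called set kept its lean towards higher genes without any library, whereas the wider set changed its split to 929 higher and 1395 lower without replicate 1 of line 9, to 916 and 993 without replicate 3 of line 12, and to 1785 and 847 without replicate 3 of line 9. In the fit to the 6 libraries alone, 679 genes passed in the wider set. None of the 81 called genes had overlapping libraries, which a call of this size nearly fixes; over all genes tested, 24.9% did not overlap.

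The largest differences were in genes of the beta-globin cluster on the short arm of chromosome 11. HBE1, the embryonic beta-like globin (chr11:5268345-5505652, minus strand, GRCh38), was at 14.9, 18.6 and 15.8 TPM in line 12 and at 0.289, 0.262 and 0.263 TPM in line 9. The parental cells had 5.31, 8.92 and 8.81 TPM, so that line 12 lay above them and line 9 below. The difference of line 12 minus line 9 was 3.77 ± 0.183 (SE) with an adjusted p of 8.42e-16. OR51B5 and OR51B4, olfactory receptor genes next to the cluster, moved with it. OR51B5 (chr11:5303444-5505652) had 11.7, 16.0 and 12.4 TPM in line 12 against 0.0717, 0.0792 and 0 TPM in line 9, a difference of 3.76 ± 0.16 (adjusted p = 4.73e-17). OR51B4 (chr11:5301014-5301946) had 4.28, 7.58 and 6.4 TPM against 0.0567, 0.171 and 0 TPM, a difference of 2.69 ± 0.151 (adjusted p = 3.97e-14). The annotated span of HBE1 overlaps those of OR51B4 and OR51B5 on the same strand, so the rows may share reads and do not count as 3 separate observations. HBB, the adult beta-globin of the same cluster, was at 32.5, 30 and 27.8 TPM in line 12 and 29.8, 37.7 and 29.6 TPM in line 9. HBG2, a fetal globin below the level tested, had 1.55, 1.38 and 1.58 TPM against 0.0967, 0.0733 and 0 TPM.

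A second group of called genes lay at the imprinted IGF2-H19 region near the tip of the same arm. There, 5 of the 6 tested genes between the starts of SYT8 and IGF2 (chr11:1828307 to chr11:2129112) were called higher in line 12. TNNI2, a fast skeletal muscle troponin, was at 10.3, 8.53 and 11.1 TPM in line 12 and at 2.51, 1.27 and 1.4 TPM in line 9 (difference 2.03 ± 0.211, adjusted p = 2.05e-08). LSP1, a leukocyte actin-binding protein, differed by 1.83, IGF2, the fetal insulin-like growth factor, by 1.82, SYT8, a synaptotagmin, by 1.56 and H19, a maternally expressed noncoding RNA, by 1.51. IGF2 and H19 had means of 12.0 and 12.3 TPM in line 12 and 2.69 and 3.66 TPM in line 9. The parental cells had 10.3 and 11.1 TPM, so that line 12 was near them and line 9 below. Low means were not particular to line 9. In lines 1, 2, 7, 8 and 11, IGF2 was at 2.42, 4.19, 1.76, 4.22 and 4.06 TPM. H19 was at 1.84, 2.02, 1.45, 3.17 and 3.14 TPM in these lines. Lines 3, 4 and 10 had 8.5, 7.96 and 7.34 TPM of IGF2, and lines 5 and 6 had 21.1 and 17.2 TPM. MRPL23, the remaining tested gene of that stretch, codes for a mitochondrial ribosomal protein and had 125, 116 and 130 TPM against 135, 142 and 134 TPM. SYT8, LSP1 and H19 lie outside the rule for named genes and were picked after their values were seen, as members of that stretch.

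Among the other genes with the largest excess in line 12 were a growth factor, an RNA-binding protein and a cytoskeletal gene. RERG, a small GTPase of the RAS superfamily that restrains growth (chr12:15107783-15348675), was at 6.35, 7.19 and 8.58 TPM in line 12 and at 0.0206, 0 and 0.147 TPM in line 9. The parental cells, at 0.987, 1.13 and 1.19 TPM, lay between. The difference was 2.98 ± 0.098 (adjusted p = 1.35e-19). PDGFC, a platelet-derived growth factor (chr4:156760454-156971394), had 20.5, 24.4 and 23.2 TPM against 2.11, 2.44 and 2.68 TPM, a difference of 2.80 ± 0.116 (adjusted p = 4.57e-17). IGF2BP3, an oncofetal protein that binds the IGF2 message among others (chr7:23310209-23470467), had 5.99, 7.33 and 7.91 TPM against 0.872, 0.935 and 1.01 TPM, a difference of 2.05 ± 0.0869 (adjusted p = 4.73e-17). In all 3 of these genes line 12 was above the parental cells and line 9 below.

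VIM, the intermediate filament vimentin of mesenchymal cells (chr10:17228259-17237593), was at 18.7, 22.5 and 17.9 TPM in line 12, 2.96, 3.39 and 3.06 TPM in line 9 and 13.8, 14.6 and 13.9 TPM in the parental cells. Line 12 minus line 9 was 2.32 ± 0.218 (adjusted p = 2.84e-09). Line 9 fell by 1.87 from the parental cells (adjusted p = 1.29e-07). The difference of line 12 from them, 0.45, did not pass in limma (adjusted p = 0.175), though the libraries did not overlap, and it passed in the authors' deposited table (adjusted p = 2.65e-06). RANBP3L, a Ran-binding protein (chr5:36248434-36302114), likewise had 5.25, 6.09 and 10.5 TPM in line 12, 0.305, 0.261 and 0.93 TPM in line 9 and 5.3, 3.84 and 4.81 TPM in the parental cells (difference 2.44 ± 0.211, adjusted p = 4.92e-10). TRNV, the mitochondrial valine tRNA, completes the 10 largest differences but was uneven, with 12.2, 9.81 and 3.11 TPM against 0, 2.43 and 0 TPM (2.47 ± 0.601, adjusted p = 0.0038). In the fit to the 6 libraries alone its adjusted p was 0.0685. As a tRNA it is poorly captured by selection of polyadenylated RNA.

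**Figure D1:**
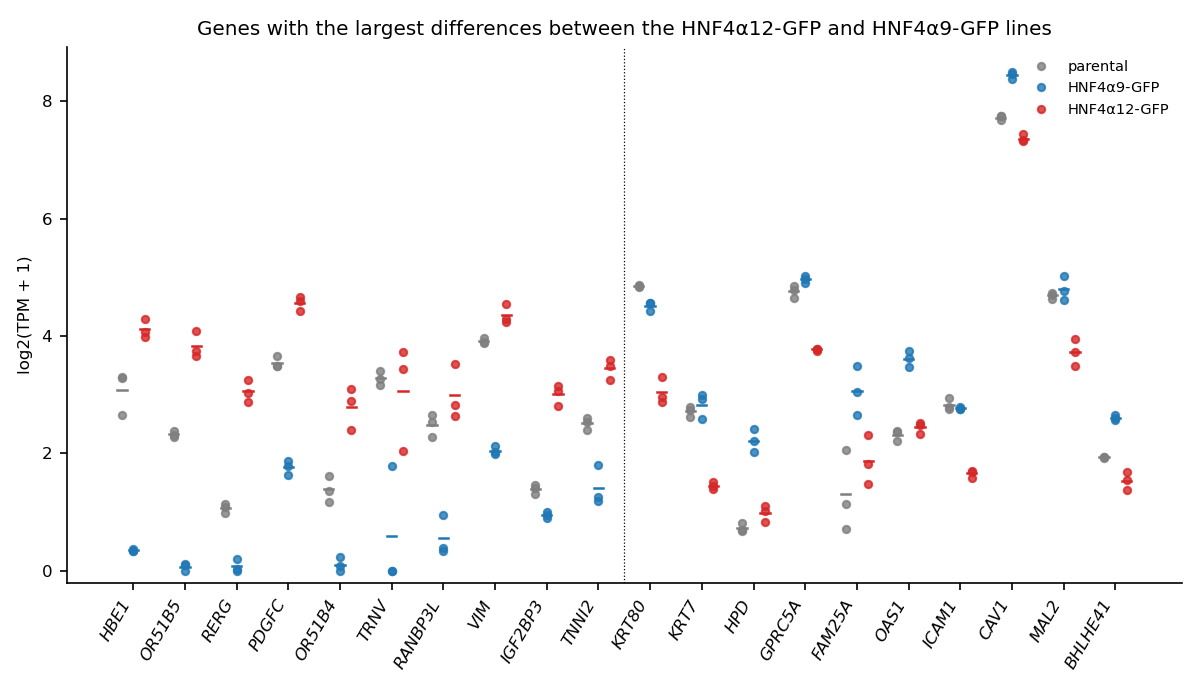
Level of the 20 genes with the largest differences, as log2(TPM + 1), in the 3 libraries each of the parental cells, line 9 and line 12; points are libraries, short lines are group means, and the dotted line separates genes higher in line 12 from genes lower in it. For all 20 genes the libraries of line 12 and line 9 do not overlap, and for HBE1, RERG, PDGFC and VIM line 9 lies below the parental cells.

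Among the genes lower in line 12 were a pair of keratins. KRT80, an epithelial keratin (chr12:52168996-52192000), was at 8.91, 6.84 and 6.31 TPM in line 12, 22.8, 22.6 and 20.5 TPM in line 9 and 27.6, 28.3 and 27.8 TPM in the parental cells (difference -1.47 ± 0.154, adjusted p = 2.35e-08). KRT7, a keratin of simple epithelia a short way along the same cluster (chr12:52232520-52252186), had 1.86, 1.62 and 1.72 TPM against 4.99, 6.94 and 6.61 TPM (-1.38 ± 0.119, adjusted p = 5e-10). In both keratins line 12 lay under the parental cells (-1.80 for KRT80 and -1.27 for KRT7), while the differences of line 9 from them, -0.33 and 0.11, did not pass in limma. For KRT80 the libraries of line 9 lay wholly below the parental ones, and the difference passed in the authors' deposited table (adjusted p = 0.000655). GPRC5A, a retinoic acid-induced orphan receptor, had 12.4, 12.8 and 12.8 TPM against 29, 30.4 and 31.6 TPM (-1.20 ± 0.0723). MAL2, which acts in transcytosis, had 10.3, 12.2 and 14.5 TPM against 23.6, 26.2 and 31.6 TPM (-1.08 ± 0.102). ICAM1, the intercellular adhesion molecule, had 2.27, 2.2 and 2.01 TPM against 5.76, 5.89 and 5.79 TPM (-1.11 ± 0.171). For GPRC5A, MAL2 and ICAM1 as well, line 12 lay under the parental cells, by -0.97 to -1.17. Line 9 differed from them by 0.21 in GPRC5A, which passed, and by 0.11 and -0.06 in MAL2 and ICAM1, which did not.

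The remaining 5 named genes of this direction were higher in line 9 than in the parental cells. In the authors' deposited table, CAV1 and BHLHE41 were also lower in line 12 than in the parental cells. Their log2 fold changes were -0.326 and -0.426 (adjusted p = 6.37e-08 and 0.00149). HPD and OAS1 did not pass there in line 12 (adjusted p = 0.29 and 0.451), and FAM25A had no adjusted p. HPD, a tyrosine-degrading enzyme of liver, was at 1.02, 0.778 and 1.15 TPM in line 12, 3.06, 3.64 and 4.32 TPM in line 9 and 0.767, 0.612 and 0.605 TPM in the parental cells (-1.23 ± 0.11, adjusted p = 9.55e-10). OAS1, an interferon-induced sensor of double-stranded RNA, had 4.63, 4.71 and 4.06 TPM in line 12, 10.1, 11.3 and 12.5 TPM in line 9 and 3.65, 4.24 and 4.13 TPM in the parental cells (-1.17 ± 0.108, adjusted p = 1.79e-09). CAV1, the coat protein of caveolae, had 173, 161 and 159 TPM against 333, 355 and 362 TPM (-1.09 ± 0.0711). BHLHE41, a repressor of the circadian clock, had 1.59, 1.91 and 2.21 TPM against 5.07, 4.91 and 5.29 TPM (-1.07 ± 0.0775). FAM25A, of a family of near-identical copies between which reads may be split, had 1.78, 3.96 and 2.54 TPM against 7.23, 10.3 and 5.32 TPM (-1.20 ± 0.263). It passed with an adjusted p of 0.00144, and missed the threshold at 0.0548 in the fit to the 6 libraries alone.

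The 2 lines were also set against the parental cells, which serve as control for both, so these comparisons are not independent of each other. Genes chosen for a difference between the lines must also leave the parental level in at least 1 of them, so the counts below describe where and support nothing. Line 12 differed from the parental cells in 85 called genes (0.567%), 65 higher and 20 lower. Line 9 differed in 123 (0.82%), 57 higher and 66 lower. Of the 67 genes called higher in line 12 than in line 9, 54 were lower in line 9 than in the parental cells at adjusted p under 0.05 (all genes, 11.8%) and 46 were higher in line 12 (all genes, 7.91%). Their median difference from the parental cells was -0.77 in line 9 and 0.55 in line 12. Of the 14 genes called lower in line 12, 7 were higher in line 9 (all genes, 10.9%) and 10 were lower in line 12 (all genes, 6.65%) than in the parental cells, with medians of 0.41 and -0.78. In the authors' deposited table the log2 fold change of HBE1 against the parental cells was 0.763 in line 12 and -2.01 in line 9, that of VIM 0.444 and -1.87, and that of KRT80 -1.26 and -0.299.

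**Figure D2:**
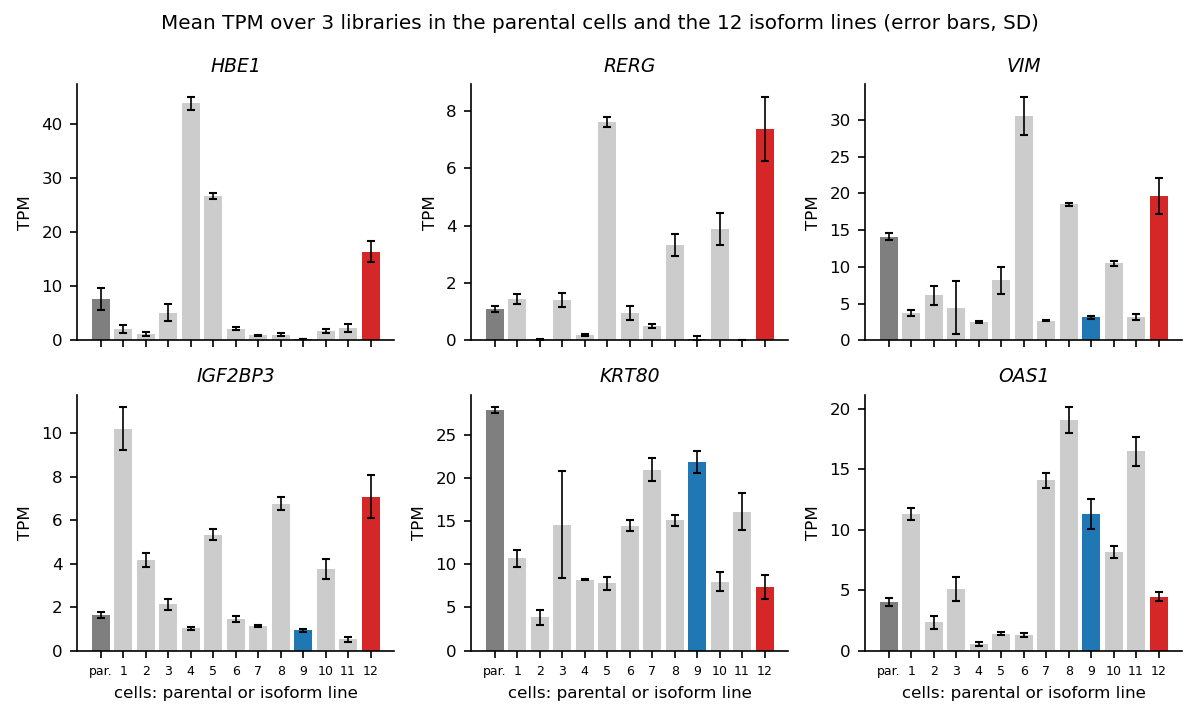
Mean TPM of HBE1, RERG, VIM, IGF2BP3, KRT80 and OAS1 in the parental cells (dark grey), line 9 (blue), line 12 (red) and the other isoform lines (light grey), with the SD over 3 libraries as error bars and an axis that starts at 0. Line 12 exceeds line 9 in the first 4 genes and lies under it in the last 2, and other lines reach levels outside the range of lines 9 and 12.

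The genes earlier seen to respond to HNF4α in these cells were compared next. The list of 19 genes earlier seen to respond was chosen on these libraries, so it is no independent evidence of a response. ACSL5, a fatty acid-activating enzyme of the intestine, was at 11.8, 12.1 and 12.8 TPM in line 12, 11.2, 12.5 and 12.9 TPM in line 9 and 0.526, 0.64 and 0.485 TPM in the parental cells. Its ranges overlapped, and the difference between the lines was 0.01 ± 0.11. All 19 genes were tested, 1 was higher and 2 were lower in line 12 at adjusted p under 0.05 (all genes, 9.13% and 7.54%), a share near that of all genes. None was called, and the median was 0.01. LGALS4, a galectin of the gut lining, was the higher one, at 2.11, 2.2 and 2.82 TPM against 0.693, 0.526 and 0.963 TPM (0.97 ± 0.169, adjusted p = 9.27e-05). CIDEC, a lipid droplet protein, was lower, at 4.27, 3.45 and 3.69 TPM against 5.53, 6.89 and 5.62 TPM (-0.54 ± 0.129, adjusted p = 0.003). FGFBP1, a carrier of fibroblast growth factors on the short arm of chromosome 4, was also lower, at 8.89, 8.27 and 7.72 TPM against 16.2, 17.6 and 12.3 TPM (-0.81 ± 0.218, adjusted p = 0.00945). Without replicate 2 of line 9 its adjusted p was 0.0553.

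For the other 16 genes of that list the difference did not pass in the fit to all libraries. C11orf86 was at a mean difference of -0.20, IL32 at -0.19, TRIM10 at -0.17, SEMA3B at 0.16, CAMK2N1 at 0.19, CIDEB at 0.14, SDCBP2 at 0.01 and VIL1, the brush border villin, at 0.33. Genes that were lower in both lines than in the parental cells stood at -0.31 for SPARC, -0.32 for PPP1R1B, -0.03 for CAVIN2 and 0.70 for DHRS2, whose SE of 0.407 was the widest. F10, APOA1 and MTTP, liver and gut genes, stood at 0.23, 0.20 and -0.30. DHRS2 was at 13.1, 9.9 and 12.3 TPM in line 12 and 6.88, 5.99 and 7.68 TPM in line 9 against 83.9, 99.3 and 106 TPM in the parental cells. Its libraries did not overlap, and its adjusted p moved from 0.28 to 0.000103 without replicate 1 of isoform 3, a library that stands apart and shares the estimate of the spread. It was 0.0288 in the fit to the 6 libraries alone. VIL1 passed at 0.0221 without that library of isoform 3, and MTTP at 0.0259 without replicate 3 of line 12 and at 0.0451 without replicate 2 of line 9. Of the 21 HNF4A targets of liver and gut, only 5 reached the level tested, and LGALS4 alone passed.

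A wider set was drawn without the libraries of lines 9 and 12, but against the same parental libraries, so that agreement with those lines is partly built in: it held genes called the same way against the parental cells in lines 7, 8, 10 and 11, where 2.07%, 1.41%, 1.43% and 1.69% of all genes were called. There were 90 genes that rose in those 4 lines and 15 that fell. The 90 genes had a median difference from the parental cells of 0.777 in line 12 and 0.964 in line 9, and 37 of them were called higher in line 12 (all genes, 0.433%) and 43 in line 9 (all genes, 0.38%). In lines 7, 8, 10 and 11, where the choice of genes sets the values, the medians were 1.74, 1.56, 1.78 and 1.79. Between the lines, 8 of the 90 were higher and 28 lower in line 12 (all genes, 9.13% and 7.54%), with a median of -0.157. Those lower in line 12 included S100A14, a calcium-binding protein of epithelia (means 51.6 and 92.2 TPM), ABCG2, an efflux transporter of the gut and liver (5.3 and 10.8 TPM), and HPD. Those higher included CLRN3, a membrane protein of the clarin family, LGALS4, MVP, the major vault protein (21.9 and 11.8 TPM) and BAAT, which conjugates bile acids (1.67 and 0.787 TPM). The 15 genes that fell had a median of -0.647 in line 12 and -1.65 in line 9, and 9 of them, HBE1, OR51B5, RANBP3L and CD24 among them, were higher and 1, FGFBP1, was lower in line 12 than in line 9. S100A14, ABCG2, CLRN3, MVP, BAAT and CD24 were named after their values were seen.

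The promoters of called genes were searched for CAAAGNNCA, a core of the HNF4α element, on both strands of the 300 bases from 250 before to 50 after the start in RefSeq (GRCh38.p14). Of the 81 called genes, 46 had an entry, and 3 of their 68 entries (4.41%) held a match, against 5.28% of all 35116 entries. The promoters of RANBP3L and CLRN3 are shown since these 2 genes also belong to the set drawn from the other 4 lines, where RANBP3L fell and CLRN3 rose. Both are on the minus strand of the genome, at chr5:36301853-36302152 and chr10:127892892-127893191, and are printed in the direction of the gene with the match in capitals; that of RANBP3L is the reverse complement.
RANBP3L: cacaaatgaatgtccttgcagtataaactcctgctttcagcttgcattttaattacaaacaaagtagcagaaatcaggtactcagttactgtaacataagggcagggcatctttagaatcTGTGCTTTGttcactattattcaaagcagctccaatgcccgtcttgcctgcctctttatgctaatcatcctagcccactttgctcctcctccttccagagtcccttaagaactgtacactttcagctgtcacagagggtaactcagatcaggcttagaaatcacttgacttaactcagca
CLRN3: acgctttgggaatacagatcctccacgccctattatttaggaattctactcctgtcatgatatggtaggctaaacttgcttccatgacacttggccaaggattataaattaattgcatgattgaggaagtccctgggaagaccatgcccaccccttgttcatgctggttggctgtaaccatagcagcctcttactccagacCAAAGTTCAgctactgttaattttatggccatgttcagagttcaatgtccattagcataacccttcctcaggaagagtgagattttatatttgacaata
The match began 130 bases before the start in RANBP3L and 49 bases before it in CLRN3. CLRN3 was at 4.81, 3.68 and 4.29 TPM in line 12, 0.522, 1.1 and 1.27 TPM in line 9 and 0.0996, 0.141 and 0.0557 TPM in the parental cells. Its libraries in lines 12 and 9 did not overlap, and the difference was 1.44 ± 0.192 (adjusted p = 1.66e-06).

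Target genes of Wnt and beta-catenin signalling, which HCT116 cells keep switched on through mutant beta-catenin, were mostly higher in line 12. Of 13 tested members, 9 were higher (all genes, 9.13%) and 1 was lower at adjusted p under 0.05, with a median of 0.55 against 0.00221 over all genes. None reached the size needed for a call. NOTUM, a secreted Wnt inhibitor, was at 10.3, 9.99 and 9.31 TPM in line 12, 3.93, 5.09 and 4.74 TPM in line 9 and 16.2, 15.9 and 15.9 TPM in the parental cells (0.96 ± 0.0945, adjusted p = 6.15e-09). SOX4, a transcription factor of progenitor cells, was at 173, 189 and 192 TPM against 85.0, 96.8 and 107 TPM, with 210, 206 and 203 TPM in the parental cells (0.94 ± 0.0792). SP5, AXIN2, EPHB3, NKD1, DKK1, CCND1 and EPHB2 were the other higher members, with differences from 0.24 to 0.83. CD44, a hyaluronan receptor, was lower by -0.32. With genes under a mean of 5 TPM left out, 5 members passed in the higher direction.

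Epithelial markers went the other way. All 8 intestinal epithelium markers were lower in line 12 (all genes, 7.54%), by -0.26 for EPCAM to -0.46 for CDH1 and CLDN7, and their sum was 2850 to 2960 TPM in line 12, 3380 to 3810 TPM in line 9 and 3320 to 3470 TPM in the parental cells. CDH1, E-cadherin, was at 22.1, 25.7 and 28.9 TPM in line 12 and 30.7, 33.1 and 43.9 TPM in line 9. Of 7 tested keratins 6 were lower and none higher, with a median of -0.34. KRT19, a keratin of ductal and gut epithelium, was at 475, 443 and 441 TPM against 604, 631 and 622 TPM (-0.45 ± 0.0398). Of 15 tested claudins and tight junction genes, 6 were lower and none higher, led by CGN, the junction plaque protein cingulin (-0.47), and CLDN7 (-0.46). These lists share members: KRT8, KRT18 and KRT19 are both keratins and epithelial markers, and CLDN3, CLDN4 and CLDN7 are in both the claudin and the marker list. In the fit to the 6 libraries alone, 5 epithelial markers and 2 tight junction genes passed, and CGN (adjusted p = 0.0543) and CDH1 (0.141) did not.

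**Figure D3:**
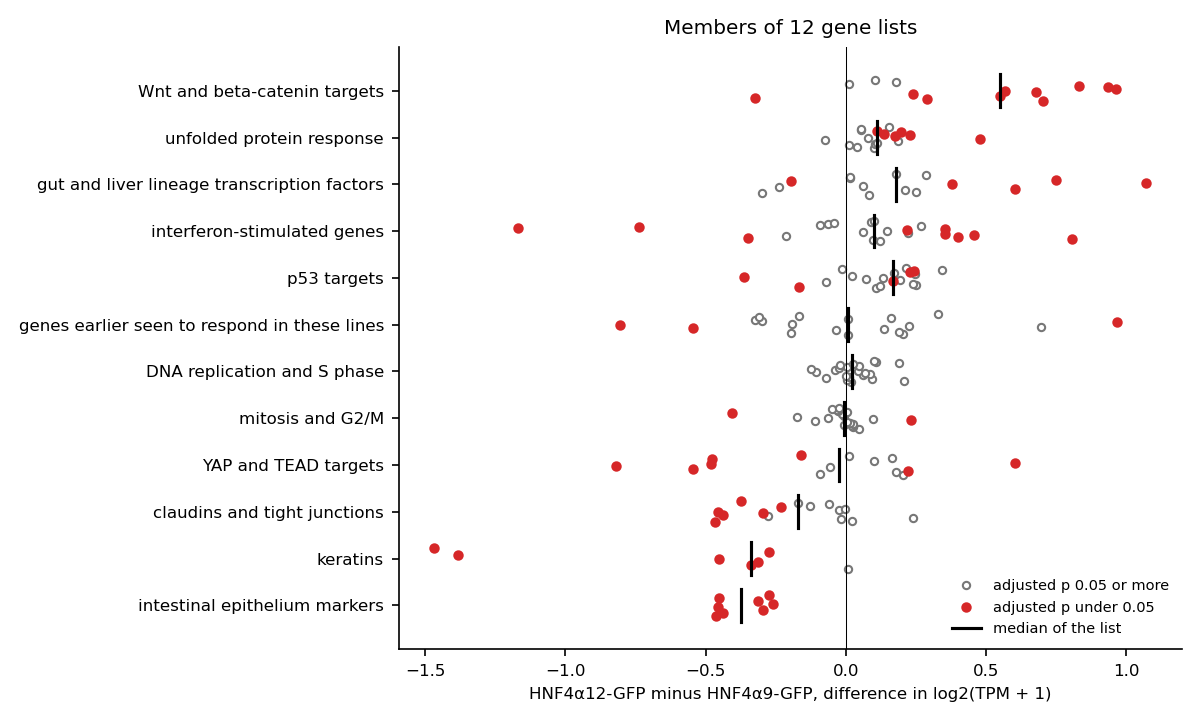
Difference of line 12 minus line 9 in log2(TPM + 1) for each tested member of 12 gene lists; filled points passed at adjusted p under 0.05, open points did not, and black bars are list medians. Wnt targets lie mostly right of 0 with a median of 0.55, epithelial markers and keratins left of it, and genes of DNA replication around it.

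Genes of the epithelial-mesenchymal state, of lineage and of signalling are read against the 9.13% of all genes that were higher and the 7.54% that were lower. Of 12 tested genes of the epithelial-mesenchymal state, VIM and FN1, which codes for fibronectin (0.41), were higher and 4 were lower, CDH1 the most. Among 15 tested lineage transcription factors, 4 were higher and 1 was lower. HOXB9, a posterior homeobox gene, was at 1.68, 2.13 and 2.06 TPM in line 12 and 0.338, 0.346 and 0.536 TPM in line 9 (1.07 ± 0.0831, adjusted p = 5.72e-11), the one called member. KLF5, a factor of proliferating crypt cells, differed by 0.75. Among 14 tested YAP and TEAD targets, 2 were higher and 5 lower, with CTGF, a matricellular protein, at -0.82 and F3, tissue factor, at 0.60. Of 10 tested EGF family ligands and receptors, NRG1, a ligand of the ERBB receptors, was called higher at 42.2, 38.3 and 33.3 TPM against 12.4, 13.9 and 10.3 TPM (1.56 ± 0.115, adjusted p = 1.64e-11), and 2 were lower, BTC at -0.32.

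Immune and stress lists were mixed, against 9.13% higher and 7.54% lower over all genes. Of 21 tested interferon-stimulated genes, 6 were higher and 3 lower: OAS1 and OAS3 (-0.74) were lower while IFI27, a small mitochondrial and membrane protein, was higher by 0.81, and the median was 0.10. Of 12 tested genes of MHC class I presentation, 3 were higher and none lower, with TAP2, a peptide transporter, at 0.73 and B2M, the class I light chain, at 0.47. Of 13 tested NF-kB genes, TNFAIP2 (0.74) was among the 2 higher and ICAM1 the 1 lower. Of 17 tested genes of the unfolded protein response, 6 were higher and none lower, with a median of 0.11. HERPUD1, of the endoplasmic reticulum degradation system, differed by 0.48 and HYOU1, a chaperone, by 0.23. That count was 3 without replicate 3 of line 12 or without replicate 1 of line 9 and 10 without replicate 3 of line 9. Of 19 tested genes of ATF4 and serine synthesis, 3 were higher, PHGDH (0.40) the most, and 2 lower, with DDIT4 at -0.37.

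Cell cycle and metabolic lists were set against the same shares, 9.13% higher and 7.54% lower, and several lay near them. None of 22 tested genes of DNA replication passed, with differences from -0.12 to 0.21, and of 20 genes of mitosis MKI67 was lower (-0.41) and CDK1 higher (0.23). Of 19 tested p53 targets, 3 were higher, TP53I3 at 0.24, and 2 lower, PLK3 at -0.36. Metabolic lists split as well: 6 higher and 2 lower of 26 in glycolysis and hypoxia (ANKRD37 0.75 and CA9 -0.70), 2 and 4 of 14 in xenobiotic metabolism (AKR1C3 0.76 and GSTA1 0.71), 1 and 3 of 23 in cholesterol synthesis (MSMO1 0.61 and MVD -0.29). In fatty acid oxidation 1 was higher and 3 lower of 20 (ETFDH 0.52 and PPARG -0.33), and in fatty acid activation and lipid droplets 2 and 1 of 18 (HILPDA 0.23 and CIDEC -0.54). The brush border list had 2 and 2 of 13, with USH1C, harmonin, at 0.63 and SLC9A3R1 at 0.33, the nuclear receptors 3 and 3 of 25, with NR4A2 at 0.47 and NR3C1 at -0.33, and the mucins and CEACAM genes 1 and 1 of 4, with MUC3A at 0.20 and CEACAM19 at -0.31. None of 4 tested metallothioneins passed. BTC, DDIT4, MKI67, CDK1, TP53I3, CA9, HILPDA, NR3C1, MUC3A and CEACAM19 each missed the threshold without 1 or more of the 6 libraries, with adjusted p from 0.0501 to 0.292. In the fit to the 6 libraries alone these 10 genes missed it too, as did B2M (0.0533), F3 (0.0613), PLK3 (0.0723), PPARG (0.074) and MVD (0.102). ANKRD37, MSMO1 and ETFDH lie on the distal long arm of chromosome 4, the stretch described next.

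Chromosome 4 stood out when the tested genes were placed by GENCODE on GRCh38, a pattern picked after the values were seen. Of 111 genes that start within the first 30 Mb, 70 (63.1%) were lower in line 12 at adjusted p under 0.05 and 2 were higher, with a median of -0.28. Of 77 genes that start from 150 Mb on, 61 (79.2%) were higher and none lower, with a median of 0.57, and PDGFC, SAP30, CTSO, CEP44, PALLD and FAT1 were called and, apart from PDGFC, were named after their values were seen. The 279 genes between had a median of 0.06. Over the first stretch the medians against the parental mean were -0.24, -0.16 and -0.18 in the libraries of line 12 and 0.03, 0.11 and 0.11 in those of line 9. Over the last stretch they were 0.28, 0.41 and 0.46 in line 12 and -0.32, -0.20 and -0.07 in line 9. In each stretch the 3 libraries of line 12 lay on the opposite side of 0 from the 3 of line 9. In 133 other stretches of 20 Mb with at least 30 tested genes, the median stayed between -0.15, on chromosome 8, and 0.11, on chromosome 5. DNA copy number was not measured in these libraries, and its part in this pattern was not tested.

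**Figure D4:**
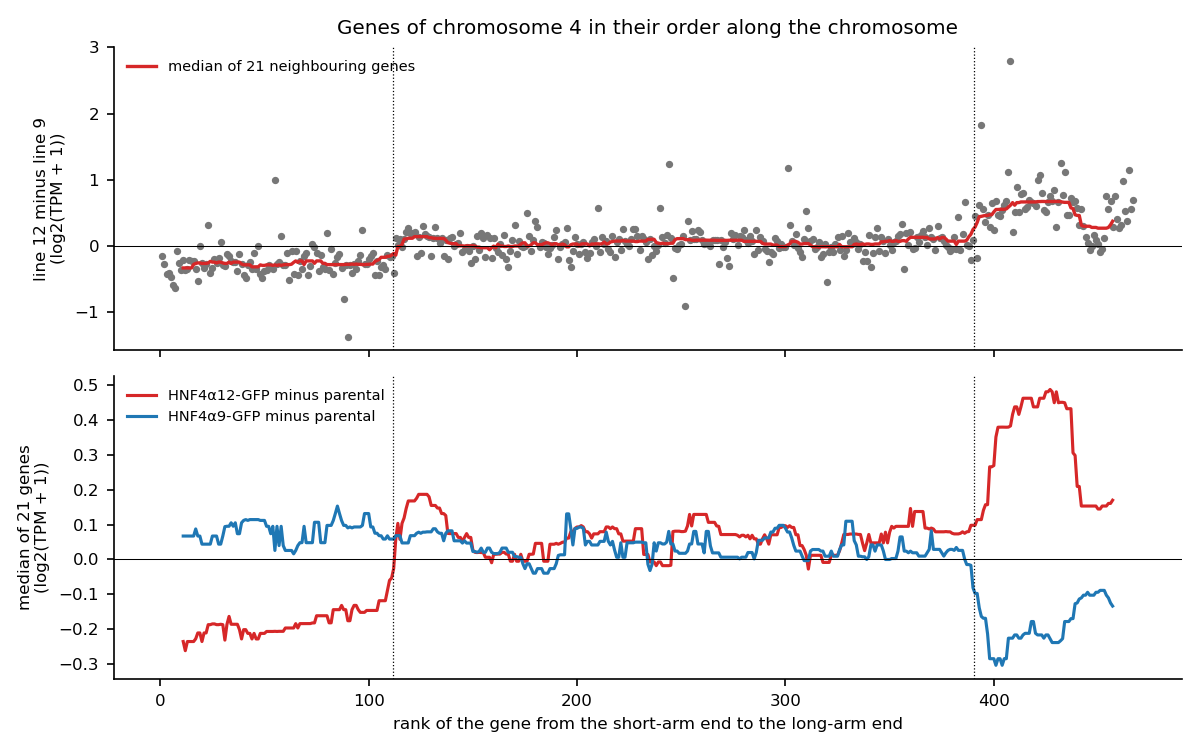
Tested genes of chromosome 4 in chromosomal order; the upper panel gives line 12 minus line 9 for each gene (points) and the median of 21 neighbouring genes (red), the lower panel the same running median for line 12 (red) and line 9 (blue) minus the parental cells, in log2(TPM + 1). Dotted lines bound the genes that start before 30 Mb and from 150 Mb on, where line 12 lies under and over line 9 in turn.

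The same 2 stretches differed in other lines. Against the parental cells, the median over the first stretch was from -0.43 to -0.23 in lines 1 to 6 and -0.35 in line 10, and it was 0.07, -0.03 and -0.03 in lines 7, 8 and 11. Over the last stretch it was -0.43, 0.04 and -0.14 in lines 7, 8 and 11 and 0.35 in line 10. There it was -0.02, 0.22, 0.16, 0.37, 0.40 and 0.35 in lines 1 to 6, which do not have the exon 1E start, and 0.39 in line 12. Line 10 minus line 7 therefore had medians of -0.43 and 0.80 in the 2 stretches, of the same sign as line 12 minus line 9, and line 11 minus line 8 had 0.01 and -0.18. Without the genes of chromosome 4, 73 genes were called between lines 12 and 9, 59 higher and 14 lower. Likewise 91 were called between lines 10 and 7, 70 higher and 21 lower, and 25 between lines 11 and 8, 4 higher and 21 lower.

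The N-terminal exchange was also made on the other 2 C-termini, in lines that share no library with lines 12 and 9. Line 10 against line 7 (full C-terminus) gave 114 called genes (0.76%), 89 higher and 25 lower with the exon 1E start. Line 11 against line 8 (C-terminus with the insertion) gave 26 (0.173%), 4 higher and 22 lower. Of the 81 genes called between lines 12 and 9, 73 had the same sign in 10 against 7, and 65 passed there in the same direction at adjusted p under 0.05, with none opposite. These were 54 of the 67 higher genes (all genes, 17.4%) and 11 of the 14 lower ones (all genes, 8.17%). In 11 against 8, 21 had the same sign, 6 passed in the same direction and 36 in the opposite one. Of the 67 higher genes, 34 were lower in 11 against 8 (all genes, 8.51%) and 4 higher (all genes, 3.46%). Of the 14 lower genes, 2 passed in the same direction in 11 against 8 and 2 in the opposite one, with a median of 0.06. The direction of line 12 minus line 9 was therefore mostly shared by the pair 10 and 7. It was mostly not shared by the pair 11 and 8, where 34 of the 36 opposite passes were among the 67 higher genes.

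RERG, PDGFC, VIM and IGF2BP3 show this reversal. PDGFC starts in the last stretch of chromosome 4. The medians of that stretch had the same signs, at 0.57 in 12 minus 9, 0.80 in 10 minus 7 and -0.18 in 11 minus 8. RERG had means of 7.37 and 0.0557 TPM in lines 12 and 9, 3.88 and 0.485 TPM in lines 10 and 7, and 0.0134 and 3.32 TPM in lines 11 and 8. VIM had means of 19.7 and 3.14 TPM, then 10.5 and 2.66 TPM, then 3.18 and 18.5 TPM in the same order. The differences of RERG were 2.98, 1.71 and -2.09, and those of VIM 2.32, 1.65 and -2.23, each past the test. IGF2BP3 gave 2.05, 1.16 and -2.35, and PDGFC 2.80, 2.47 and -1.25. The keratins differed from these: KRT7 gave -1.38, -2.09 and 0.02 and KRT80 -1.47, -1.29 and 0.08, so that the pair 11 and 8 showed no detectable difference (adjusted p = 0.932 and 0.781). Of the 13 tested Wnt targets, 9 were higher in 10 against 7 (all genes, 17.4%) and none lower. In 11 against 8, 1 was higher (all genes, 3.46%) and 5 were lower (all genes, 8.51%). This reversal was not particular to Wnt targets. Of 17 tested genes of the unfolded protein response, 15 were higher in 10 against 7 and 12 were lower in 11 against 8. Their medians were 0.29 and -0.17, and those over all genes were 0.0384 and -0.0409. With median-of-ratios scaling the medians over all genes were -0.00782 and 0.00737, and the list counts of these pairs were not recomputed.

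**Figure D5:**
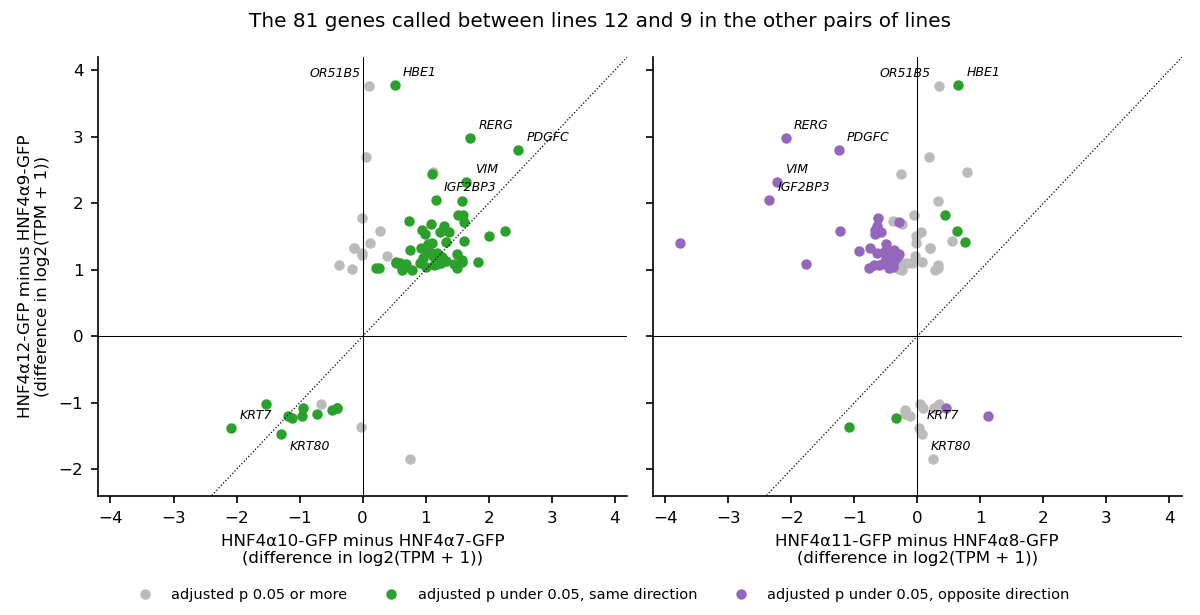
The 81 genes called between lines 12 and 9: their difference in line 12 minus line 9 (vertical) against line 10 minus line 7 (left) and line 11 minus line 8 (right), in log2(TPM + 1); colour gives the test in the pair on the horizontal axis and the dotted line equal differences. On the left 65 genes pass in the same direction and none in the opposite one, on the right 6 and 36.

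The difference itself was tested by setting line 12 minus line 9 against the mean of 10 minus 7 and 11 minus 8. In 58 genes (0.387% of those tested) this departure was called, 50 positive and 8 negative. HBE1 and its neighbours led: HBE1 had differences of 3.77, 0.51 and 0.64 in the 3 pairs and a departure of 3.19 ± 0.224 (adjusted p = 1.82e-11). Of the 81 called genes, 68 departed at adjusted p under 0.05 (all genes, 8.12%). These genes were chosen on line 12 minus line 9, which the departure contains, so this count and its direction are largely fixed by the choice.

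No gene was called the same way in all 3 pairs. At adjusted p under 0.05, 399 genes passed in all 3, and 59 of them had 1 direction throughout, 34 higher and 25 lower with the exon 1E start. Only 6 of these differed by at least 0.5 in every pair. HBE1, SNCG, LGALS4, GP1BB, BAAT and SLC1A7 were these 6, and all were higher. SNCG, a synuclein, was at 21.2, 22 and 22.1 TPM in line 12 and 6.45, 7.03 and 9.34 TPM in line 9, with differences of 1.42, 1.32 and 0.75. LGALS4 gave 0.97, 1.07 and 0.52, and BAAT 0.59, 1.52 and 0.75. GP1BB, a platelet glycoprotein whose libraries in lines 12 and 9 overlapped, gave 0.83, 0.78 and 0.77. The rows SEPT5 and SEPT5-GP1BB gave 0.63, 0.69 and 0.45, and 0.47, 0.92 and 0.65. These rows may share reads with that of GP1BB, which is then no separate observation. SLC1A7, a glutamate transporter of retina, gave 0.58, 1.01 and 0.55. SNCG, GP1BB, SEPT5, SEPT5-GP1BB, BAAT and SLC1A7 were named after their values were seen.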

How the data were processed

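Polyadenylated RNA of 39 libraries in 13 groups of 3 was sequenced on an Illumina NovaSeq from directional libraries, per the labels' protocols. The submitters' processing notes name Trimmomatic 0.36, FastQC 0.11.5, kallisto 0.44.0, DESeq2 1.22.2 and the genome build GRCh38.p12, without their roles. The deposited values are TPM for each gene and library, scaled by the authors for length and library total, and they keep no read depth. Each deposited table also holds the authors' mean normalised count (used here as a signal), log2 fold change against the parental cells and p-values, the adjusted p-values included. The authors' mean normalised counts sum to 54215297 in the table of line 12 and 52607952 in that of line 9.

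From 45446 rows, the 12 HNF4A rows were left out of the tests, and the 15002 genes whose average across libraries reached 1 TPM were kept. Differences of log2(TPM + 1) were tested with limma 3.58.1 (R 4.3.3, eBayes with trend) in 1 fit to all 39 libraries with 13 group means, and p-values were adjusted over all genes tested (Benjamini-Hochberg). Columns of isoforms 4 and 5 were assigned to a group only. The limma comparison of line 12 with line 9 was tried on simulated data with 50 changed genes of each size among 15002. At a log2 difference of 1, 98% passed at adjusted p under 0.05 in the right direction, a looser rule than the call. It called 2 unchanged genes, and 16 unchanged genes passed at adjusted p under 0.05. The changed genes were not drawn from the lowest levels, and the simulated libraries varied independently. The simulation therefore does not cover genes at low level or a spread shared between libraries. HNF4A was tested by exact permutation.

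Named genes are HNF4A, the 10 largest called differences in each direction, the 2 largest per gene list and the list of earlier responders. Rows that repeat another row were not named. Other list members were named after their values were seen. The members and lists were chosen with earlier results of these data known. Alternatives were another pseudocount, other filters, median-of-ratios scaling, a fit to the compared libraries with and without a replicate block, eBayes without trend, repeated rows left out and each replicate left out. Added after seeing the data were fits without the chromosome 4 genes and without replicate 1 of isoform 3. GENCODE v29 (GRCh38) placed 13509 of the tested genes (90%).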

Additional observations from a re-analysis of the deposited data

Results flagged for a closer look

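The comparison of line 12 with line 9 was set against the same N-terminal exchange on the other C-termini, by testing line 12 minus line 9 against the mean of line 10 minus line 7 and line 11 minus line 8 in limma. The difference between these contrasts was called in 58 genes. Among the named genes it was 3.54 for OR51B5, 3.19 for HBE1 and 2.58 for OR51B4, whose rows may share reads. It was 3.17 for RERG, 2.65 for IGF2BP3, 2.61 for VIM, 2.19 for PDGFC and 2.02 for RANBP3L. Smaller departures were 1.17 for NRG1, 1.11 for HOXB9 and 1.07 for TNNI2, and negative ones were -1.28 for FAM25A and -1.01 for MAL2. In RERG, IGF2BP3, VIM, PDGFC, RANBP3L, NRG1, HOXB9, FAM25A and MAL2, line 10 minus line 7 had the sign of line 12 minus line 9. Line 11 minus line 8 had the opposite sign there, so the mean of both pairs hides their disagreement. VIM gave 2.32 in line 12 minus line 9, then 1.65 and -2.23. A departure from line 10 minus line 7 alone was not tested. The named genes were chosen mostly on line 12 minus line 9, which the contrast contains, so their departures are partly fixed. Groups of 3 libraries were not tested for outlying libraries by their spread.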

How the results depend on the processing

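Of 216 recomputed summary values, 193 were counted as unchanged and 23 as moved. Counts were unchanged within 1.5 times the reported count, and medians within 0.1 of the reported median. The HNF4A differences were counted as unchanged with no limit on their size, and ranged from -340.9 to -213.1 TPM without 1 replicate. With a pseudocount of 0.1 the genes called were 188 between lines 12 and 9, 109 for the departure from the other pairs, 244 for line 10 against 7, 60 for line 11 against 8, 151 for line 12 and 253 for line 9 against the parental cells. With a filter at a mean of 5 TPM these were 44, 32, 59, 15, 55 and 74, and 5 Wnt targets were higher. In the fit to the 6 libraries alone, 679 genes passed at adjusted p under 0.05, with 2 unfolded protein response genes higher and 2 tight junction genes and 5 epithelial markers lower. For the 15 genes that fell in lines 7, 8, 10 and 11, the median of line 12 minus line 9 was 0.5 with a pseudocount of 0.1, and 0.541 both with the filter taken over the compared libraries and without the chromosome 4 genes. The cause was not tested. Leaving out 1 replicate in turn gave 82 to 95 called genes, 1885 to 2632 genes at adjusted p under 0.05, 56 to 62 departures, 79 to 86 genes for line 12 and 126 to 138 for line 9 against the parental cells. It gave 3 to 10 unfolded protein response genes. All 81 reported genes were among the 188 called with the smaller pseudocount, and 77 of the 78 called under median-of-ratios scaling were among the 81. Over 77 named genes, 1208 of 1276 recomputed differences kept their side of the threshold, 62 missed the threshold and 6 newly passed. None changed sign where the gene passed in the reported fit or newly passed. A change of sign was not counted where a gene passed in neither fit. Deviations of same-numbered libraries correlated at 0.232, 0.008 and 0.226, and those of replicates 1 and 3 across the lines at -0.226 both ways. The deviations within a line sum to 0, so these correlations are not independent of each other. The replicate numbers were not taken as pairs, since the labels name no shared batch. Whether libraries of the same number share an effect across the lines was not tested. With the numbers as a replicate block in the fit to the 6 libraries, 85 genes were called against 76 without it and 2087 passed at adjusted p under 0.05 against 679, and the paired difference of HNF4A was -270.6 TPM (exact permutation p = 0.25). TPM keep no depth, so no counting limit could be given for genes at low level.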
